A study of Mus musculus with 8 samples.

Results

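Transcripts of 10 genes of the MAP kinase cascades were followed in the mouse heart after lipopolysaccharide (LPS), a cell-wall component of Gram-negative bacteria. They encode the kinases Map3k5, Map3k6, Map3k8, Map2k3 and Mapk14 and the dual-specificity phosphatases Dusp1, Dusp6, Dusp8, Dusp10 and Dusp16. The genes were found through the RefSeq accession printed beside each array probe, which gave 17 probes for all 10 genes, among 35078 gene probes on the array. Female C57BL/6 mice, an inbred strain, aged 12 weeks were injected into the peritoneum with either 5 mg/kg LPS or saline, with 4 mice in each group. All hearts were flushed with buffer and taken 8 h later, and the RNA of each, extracted from pieces of tissue, went on a single-colour oligonucleotide array of its own. Values below are listed in the order of replicates 1 to 4, and the labels state no pairing of same-numbered arrays. The labels name no transgene or deletion in either group. Heart pieces hold many cell types, so that fewer cells of a type and less RNA per cell cannot be told apart in these values.

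MAP kinase cascades pass a signal by phosphorylation from a MAP kinase kinase kinase (MAP3K) to a MAP kinase kinase (MAP2K) and on to a MAP kinase (MAPK): ERK, JNK or p38. Dual-specificity phosphatases (DUSPs) of the MAP kinase phosphatase class remove the phosphates from the MAPK, and several are themselves induced by the pathway that they shut down. In cells that respond to LPS through Toll-like receptor 4, these cascades are known to control the production and stability of cytokine mRNAs. The arrays measured transcripts and not kinase activity.

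A spot counted as above background when its signal, less the local background, passed a limit set by the 94 negative-control spots of the same array (their 95th percentile, 25.9 to 40.5 intensity units). Testing required 4 or more of the 8 arrays above that limit, which kept 14 of the 17 member probes and 9 of the 10 genes; Dusp10 was not among them. Levels are log2 intensities after background correction and quantile normalization, and a change is the log2 level with LPS minus that with saline. Each change was tested by limma, a linear model fitted across all genes, and called where the Benjamini-Hochberg adjusted p was under 0.05. Across the whole array 8874 named genes were tested and 1732 (19.5%) were called, 864 higher and 868 lower, with a median change of -0.05. Between 37.3% and 46.9% of the gene probes were above background on each array. All 8 cardiomyocyte markers examined, Myh6 and Tnnt2 among them, passed the filter, as a check of the labelled tissue. The median spot signal over background was 12 to 18 intensity units with LPS and 15 to 32 with saline. Saline 3 and 4 and LPS 2 to 4 were scanned on the first day, LPS 1 and saline 2 on the second and saline 1 alone on the third. The slide series was inferred from the opening characters of each sample's description. By this reading LPS 2 to 4 came from one slide series, and LPS 1 with all saline arrays from another. LPS 2, LPS 4, saline 2 and saline 4 carried a redip mark in their image names, whose meaning is not known here.

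Of the 9 tested genes, 2 rose and none fell, and both were MAP3Ks. This was 22.2% of the 9, against 19.5% of all tested genes called (9.74% higher and 9.78% lower). The LPS and saline arrays did not overlap for the same 2 genes, against 23.5% of all tested genes. Map3k6 rose 7.48-fold. Map3k8 rose too, but it was above background on 1 of 4 saline arrays and passed the filter through the LPS group alone, so that its fitted fold of 1.75 rests on saline readings near the limit. The other 7 genes did not pass the threshold. Their changes lay between -0.54 and 0.72, and the median over the 9 genes was 0.21. The share called is close to that of all tested genes.

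**Figure D1:**
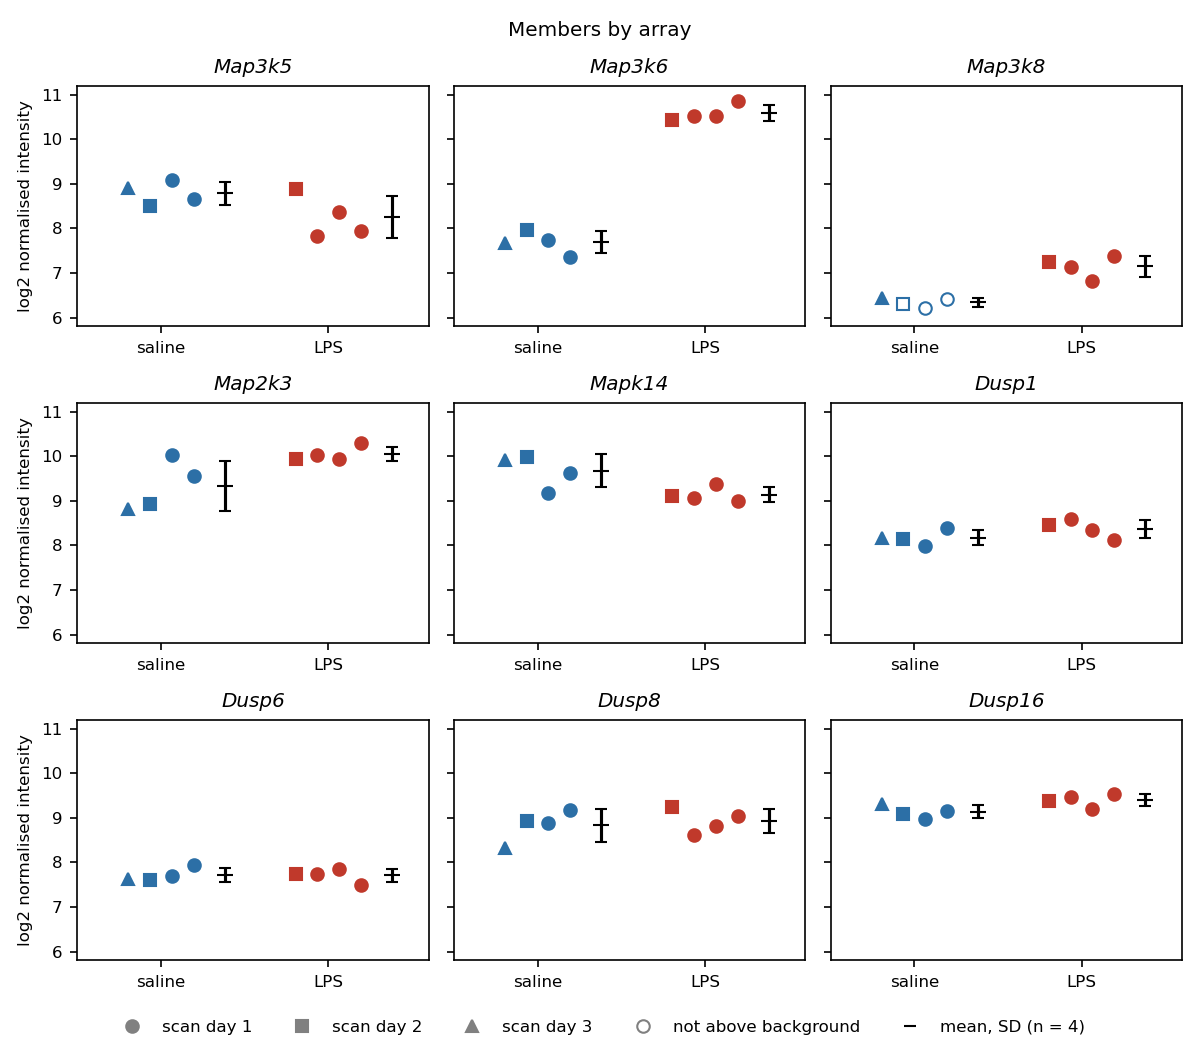
Log2 normalised intensity (vertical axis) of the brightest probe of each of the 9 tested genes on the 4 saline arrays (blue) and the 4 LPS arrays (red), with the group mean and SD beside them; symbols give the scan day and open symbols mark spots not above background. Map3k6 and Map3k8 are the genes whose groups do not overlap, and the saline arrays of Map2k3 spread from 8.82 to 10.03.

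Map3k6, also called ASK2, is a stress-responsive MAP3K that forms complexes with its relative ASK1, the product of Map3k5. The gene lies at chr4:133237979-133252929 in GRCm38.p6. Its log2 level was 10.44, 10.53, 10.53 and 10.86 in the LPS hearts, and 7.68, 7.96, 7.75 and 7.36 in the saline hearts. Every LPS array lay more than 2 log2 units above every saline array. The change was 2.90 (SE 0.15, adjusted p = 3.84e-06 in limma), from 7.69 ± 0.25 (SD, n = 4) to 10.59 ± 0.18 (SD, n = 4). By size it ranked 65 among the 8874 tested genes. Before normalization the spot signal minus background was 1528, 1134, 1151 and 1128 intensity units in the LPS hearts and 330, 222, 131 and 104 in the saline hearts. The probe was therefore well above the negative-control limit in both groups. The gene kept its call in every alternative processing and with any 1 array left out, at changes of 2.54 to 3.15. It was 3.09 within the first scan day (adjusted p = 0.00165) and, with no replicate on the LPS side, LPS 1 lay 2.76 above the mean of the saline arrays of its own slide series. The named genes whose profile over the 8 arrays, relative to their own saline mean, came nearest to that of Map3k6 were D17H6S56E-5, Bst2 and Lgals9. They differed from it by 0.20, 0.20 and 0.22 log2 units per array on average.

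The 250 bases before and 50 bases after the annotated start of Map3k6 are shown because this gene had the largest change of the 10. This start site lies 2839 bases inside the interval annotated for the gene, so the window does not cover the upstream end of that interval. The sequence is the RefSeq promoter window at chr4:133240568-133240867 (GRCm38.p6, plus strand), 62.0% G and C. Promoter windows were available for 9 of the 10 genes. Capitals would mark any of 5 motifs looked for on both strands, and there are none in it.
Map3k6: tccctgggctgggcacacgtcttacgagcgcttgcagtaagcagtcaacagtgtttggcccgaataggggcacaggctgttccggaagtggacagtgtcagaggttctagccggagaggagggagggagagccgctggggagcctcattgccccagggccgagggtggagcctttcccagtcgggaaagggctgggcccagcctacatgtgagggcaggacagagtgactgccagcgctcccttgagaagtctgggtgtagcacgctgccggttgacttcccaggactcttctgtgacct
The motifs were AP-1 (TGANTCA), the cAMP response element CRE (TGACGTCA), the STAT site GAS (TTCNNNGAA), the interferon element ISRE and the NF-kB site. Of 32851 promoter windows of the same length, 7.81% held AP-1, 1.79% CRE, 8.30% GAS, 3.44% ISRE and 8.46% NF-kB.

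Map3k8, known as TPL2 or COT, is the MAP3K that links Toll-like receptors to MEK1 and ERK in mouse macrophages. Its level was 7.25, 7.13, 6.81 and 7.39 in the LPS hearts, against 6.43, 6.31, 6.21 and 6.41 in the saline hearts. The groups did not overlap, and LPS 3 came nearest to saline. The change was 0.81 (SE 0.14, adjusted p = 0.00397 in limma), from 6.34 ± 0.10 (SD, n = 4) to 7.15 ± 0.25 (SD, n = 4). The transcript was dim. Its signal minus background was 91, 65, 46 and 67 intensity units with LPS and 49, 21, 12 and 26 with saline, and it was above background on all LPS arrays and on saline 1 alone. The size of the rise is therefore uncertain: it was 1.19 with a smaller background offset of 16 and 1.49 when the mean brightness of each spot replaced its median. The call ended within the first scan day (change 0.80, adjusted p = 0.0763) and on the 4 arrays without a redip mark (0.71, adjusted p = 0.348). It held with any 1 array left out (changes of 0.73 to 0.92). The profiles nearest to it were those of Slc1a4, Casp8 and Exosc2, which differed by 0.06, 0.08 and 0.09 log2 units per array on average.

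**Figure D2:**
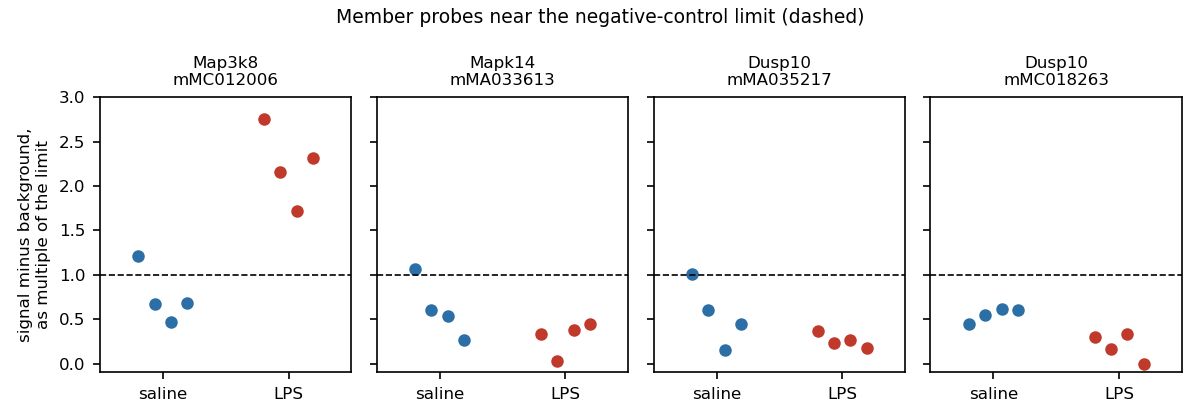
Spot signal minus local background, divided by the negative-control limit of the same array (vertical axis, dashed line at 1), for the 4 member probes above background on fewer than 3 saline arrays. Blue points are saline and red points LPS arrays; Map3k8 is above the line on all LPS arrays, and both Dusp10 probes are at or below it on all but 1 array.

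The other parts of the TPL2 module were measured too. TPL2 is held by the NF-kB precursor p105, encoded by Nfkb1, and by ABIN-2, encoded by Tnip2, and phosphorylates MEK1, encoded by Map2k1. Tnip2 rose by 0.95 (SE 0.18, adjusted p = 0.00631) and Map2k1 by 1.15 (SE 0.22, adjusted p = 0.00529). Both calls ended under median scaling over all gene probes (0.63 and 0.74, adjusted p = 0.0958 and 0.124) and within the first scan day (0.82 and 1.05, adjusted p = 0.106 and 0.114). Map2k1 also missed the threshold with slide series as a block (1.32, adjusted p = 0.0528). Nfkb1 had a change of 0.37 (SE 0.12, adjusted p = 0.0606). Map2k2, which encodes the other MEK of the ERK cascade, had a change of -0.16 (SE 0.13, adjusted p = 0.426).

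Map3k5, which encodes ASK1, a MAP3K activated by oxidants and tumour necrosis factor, did not pass the threshold. The gene lies at chr10:19934101-20142750. Its level was 8.89, 7.83, 8.37 and 7.94 in the LPS hearts and 8.90, 8.52, 9.09 and 8.65 in the saline hearts. LPS 1 lay inside the saline range and the other LPS arrays below it. The change was -0.53 (SE 0.23, 95% interval -1.04 to -0.02, adjusted p = 0.140 in limma). It was -0.74 without LPS 1 (adjusted p = 0.0287), the only LPS array of the second slide series, and 0.10 with slide series as a block (adjusted p = 0.871). With the redip mark as a block the change stayed at -0.53 and passed (adjusted p = 0.0421), as it did on the marked arrays alone (-0.70, adjusted p = 0.0398). The other Map3k5 probe gave -0.13 (SE 0.14).

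Map2k3, which encodes the p38-activating kinase MKK3, was high on all LPS arrays and uneven among the saline arrays. The gene lies at chr11:60932054-60952811. The level was 9.94, 10.03, 9.95 and 10.30 in the LPS hearts and 8.82, 8.93, 10.03 and 9.57 in the saline hearts. Saline 3 was within the LPS range, and saline 1 and 2 were about 1 log2 unit lower than any LPS array. The change was 0.72 (SE 0.25, 95% interval 0.17 to 1.27, adjusted p = 0.0714 in limma). The 2 high saline arrays, 3 and 4, were those scanned on the first day. Within the first day, which held 3 LPS arrays and these 2 saline arrays, the change was 0.29 (adjusted p = 0.404). On the second day LPS 1 exceeded saline 2 by 1.01, with no replicate. Without saline 3 the change was 0.95 and passed (adjusted p = 0.0129), and with mean spot brightness it was 0.15. The other Map2k3 probe, dimmer, gave 0.10 (SE 0.13).

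Map2k6 encodes MKK6, the other dedicated p38 activator. It had a change of -0.32 (SE 0.11, adjusted p = 0.0764) and was above background on 1 LPS array and on all saline arrays. The LPS level is therefore near the limit, and the size of its change is uncertain.

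Mapk14 encodes p38 alpha, the main p38 kinase of the heart, and lies at chr17:28691342-28748405. Its level was 9.11, 9.07, 9.38 and 8.99 in the LPS hearts and 9.92, 9.99, 9.19 and 9.64 in the saline hearts. Saline 3 was again the array nearest to the LPS group, below LPS 3 and above the other LPS arrays. The change was -0.54 (SE 0.18, 95% interval -0.95 to -0.14, adjusted p = 0.0632 in limma). It passed without saline 3 (-0.71, adjusted p = 0.0134) and without LPS 3 (-0.62, adjusted p = 0.0453). Taking each spot's mean brightness also made it pass (-0.64, adjusted p = 0.0199). Within the first scan day it was -0.26 (adjusted p = 0.462), and on the second LPS 1 minus saline 2 was -0.88. The other Mapk14 probe was above background on saline 1 alone.

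**Figure D3:**
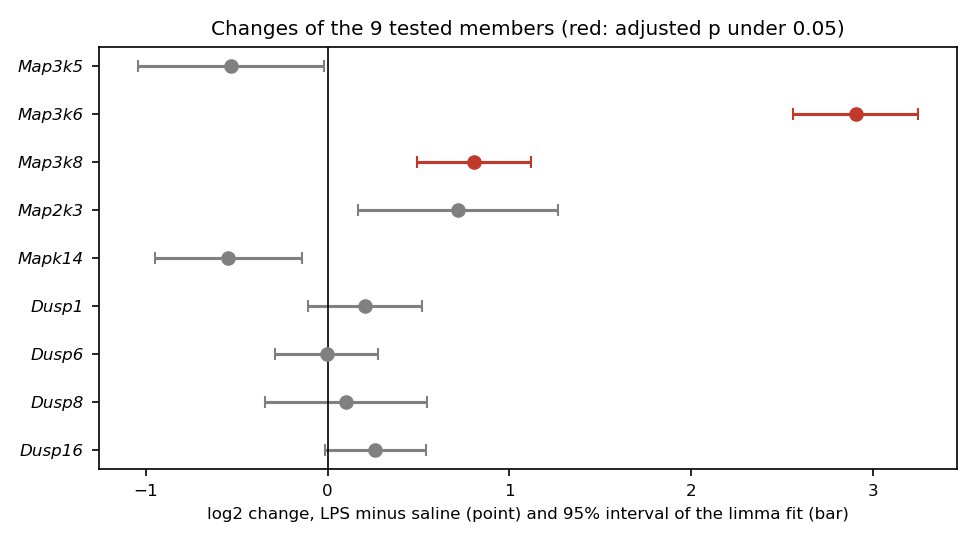
Log2 change, LPS minus saline (horizontal axis), of the 9 tested genes with the 95% interval of the limma fit as bars; red marks an adjusted p under 0.05. The bar of Map3k6 runs from 2.56 to 3.25 and that of Map3k8 from 0.49 to 1.12, while the bars of Dusp1, Dusp6, Dusp8 and Dusp16 cross 0.

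None of the 4 phosphatase genes tested passed the threshold, and the fifth, Dusp10, could not be measured. Dusp1 encodes MKP-1, a nuclear phosphatase of p38 and JNK that is induced early by LPS and by glucocorticoids in macrophages. The gene lies at chr17:26505591-26508472. Its level was 8.46, 8.59, 8.35 and 8.12 in the LPS hearts and 8.16, 8.14, 7.99 and 8.40 in the saline hearts. The groups overlapped, because saline 4 exceeded LPS 3 and 4. The change was 0.21 (SE 0.14, 95% interval -0.11 to 0.52, adjusted p = 0.339 in limma), so that the interval leaves room for a rise of up to 0.52 at this time point. The value was 0.60 with mean spot brightness, also without a call.

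Dusp6 encodes MKP-3, a cytoplasmic phosphatase selective for ERK and a known transcriptional output of ERK itself. The gene lies at chr10:99263231-99267489. Its level was 7.74, 7.75, 7.85 and 7.50 in the LPS hearts and 7.63, 7.60, 7.69 and 7.94 in the saline hearts. The arrays of the groups were interleaved. The change was -0.004 (SE 0.13, 95% interval -0.29 to 0.28, adjusted p = 0.986 in limma). The second Dusp6 probe gave -0.23 (SE 0.13).

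Dusp16 encodes MKP-7, a phosphatase of JNK and p38, and lies at chr6:134715468-134807063. The level was 9.39, 9.48, 9.21 and 9.54 in the LPS hearts and 9.32, 9.09, 8.99 and 9.15 in the saline hearts. LPS 3 fell below saline 1 and the other LPS arrays lay above every saline array. The change was 0.26 (SE 0.12, 95% interval -0.01 to 0.54, adjusted p = 0.173 in limma). Its other 2 probes gave -0.17 (SE 0.16) and -0.14 (SE 0.17), so the probes differed in sign.

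Dusp8 also encodes a phosphatase of JNK and p38 and lies at chr7:142079487-142095907. Its level was 9.24, 8.62, 8.82 and 9.05 in the LPS hearts and 8.32, 8.94, 8.88 and 9.18 in the saline hearts. The groups overlapped almost wholly, with saline 1 the lowest array. The change was 0.10 (SE 0.20, 95% interval -0.34 to 0.55, adjusted p = 0.763 in limma). When arrays were instead scaled to the median of all gene probes, which moved the median change of all genes from -0.05 to -0.35, Dusp1, Dusp8 and Dusp16 were at -0.18, -0.32 and -0.18, above that median. Map2k3 was then at 0.29, Map3k5 at -0.92 and Mapk14 at -0.99, none of them called.

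Dusp10 encodes MKP-5, a phosphatase of p38 and JNK, and lies at chr1:184034381-184075636. One of its probes read 12, 7, 7 and 5 intensity units over background in the LPS hearts and 41, 19, 4 and 17 in the saline hearts. It was above the limit on saline 1 alone. The other read 10, 5, 9 and 0 with LPS and 18, 17, 16 and 23 with saline, below the limit on all 8 arrays. No change is given, because the gene was not well above background in either group.

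The promoter windows of Dusp1 and Dusp8 are shown because they were the ones among the phosphatase genes that held a motif of the 5. Capitals mark the CRE. The Dusp1 window is chr17:26508423-26508722 (minus strand) and the Dusp8 window chr7:142095235-142095534 (minus strand), both from RefSeq in GRCm38.p6 and printed 5′ to 3′ along the gene.
Dusp1: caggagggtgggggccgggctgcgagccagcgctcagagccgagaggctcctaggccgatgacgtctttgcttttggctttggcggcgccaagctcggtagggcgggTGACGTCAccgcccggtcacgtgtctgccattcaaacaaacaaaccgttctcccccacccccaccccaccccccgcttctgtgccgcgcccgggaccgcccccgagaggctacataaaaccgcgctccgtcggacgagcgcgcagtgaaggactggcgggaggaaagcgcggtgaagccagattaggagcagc
Dusp8: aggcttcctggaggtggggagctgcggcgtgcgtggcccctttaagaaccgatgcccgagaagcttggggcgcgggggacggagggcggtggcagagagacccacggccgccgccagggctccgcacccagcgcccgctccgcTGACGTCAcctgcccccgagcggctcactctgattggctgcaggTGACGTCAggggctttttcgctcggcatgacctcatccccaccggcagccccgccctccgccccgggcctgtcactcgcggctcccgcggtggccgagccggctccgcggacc
The Dusp1 start lies at the end of its gene interval and that of Dusp8 623 bases inside. Counted from these starts, the Dusp1 match ran from -143 to -136, and the 2 Dusp8 matches from -107 to -100 and from -63 to -56. CRE was found in 1.79% of all windows. Neither gene passed the test, and the match is a description of the letters alone. Dusp6, Dusp10, Dusp16, Map3k5 and Map2k3 held none of the 5 motifs in their windows. Mapk14 has windows at 2 start sites, of which 1 held a GAS and an ISRE match.

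The rest of the pathway was described with 103 other genes grouped by role, of which 68 passed the filter. In all, 12 rose and 4 fell (23.5%, against 19.5% of all tested genes), with a median change of -0.01 against -0.05 over all genes. Median scaling over all gene probes gave 4 higher and 8 lower, and ended the calls of 8 of the 12 genes that rose. Over all tested genes the same scaling gave 347 higher and 1126 lower, with a median change of -0.35. Mapk12 and Dusp18 passed as lower under it, at -1.04 (adjusted p = 0.0408) and -1.03 (adjusted p = 0.0406). None of the 11 other MAPK genes passed when read from the brightest probe. Mapk12, which encodes p38 gamma, came nearest to a fall at -0.61 (SE 0.19, adjusted p = 0.0534) and passed in 9 of 27 alternatives. A second Mapk12 probe gave -0.72 (SE 0.17), and the mean over its probes passed as lower (-0.67, adjusted p = 0.0181 in limma). Among 12 other MAP3K genes 1 rose and 2 fell. Map3k20, which encodes the ribotoxic stress kinase ZAK, rose by 0.70 (SE 0.13, adjusted p = 0.00482). Its call ended in 5 of 27 alternatives. Among them were median scaling over all gene probes (0.42, adjusted p = 0.166 in limma) and the first scan day (0.65, adjusted p = 0.0831). Map3k11 and Map3k12, which encode the mixed-lineage kinase MLK3 and the related kinase DLK, both fell; the change was -0.77 for Map3k11 (SE 0.17, adjusted p = 0.0128), while that for Map3k12, above background on 2 LPS arrays, was -0.73 (SE 0.21, adjusted p = 0.0338). Of 6 other MAP2K genes only Map2k1 passed.

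None of 3 other tested MAP kinase phosphatase genes passed, with the smallest p for Dusp2 (0.31, SE 0.15, adjusted p = 0.171). None of 7 atypical DUSP genes passed either, with Dusp18 at -0.62 (SE 0.25, adjusted p = 0.109). Mean spot brightness made Dusp2 pass as higher (0.65, adjusted p = 0.0162), and Dusp18 passed as lower in 3 of 27 alternatives. The share of called genes in these roles was 0 of 10, beside 19.5% over all tested genes, and this difference was not tested.

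In the other roles, 3 of 6 tested ERK outputs, 2 of 3 feedback inhibitors and 4 of 11 scaffolds and partners rose, and of 9 kinases activated by MAPKs 1 rose and 2 fell. These shares stand beside 19.5% of all tested genes called, and no difference between them was tested. Egr1, an immediate-early transcription factor gene induced by ERK, rose by 2.26 (SE 0.28, adjusted p = 0.000522), and Etv5 by 0.58 (SE 0.16, adjusted p = 0.0290). Fosl1, which encodes the AP-1 subunit FRA-1, was above background on all LPS arrays and no saline array, and passed the filter through the LPS group alone. It was at least 1.87-fold higher (adjusted p = 0.00120). The other 3 ERK outputs tested did not pass. Phlda1 was at 0.33 (SE 0.31), while Ccnd1 was at -0.43 (SE 0.19) and Epha4 at -0.31 (SE 0.27). Dusp6, described above as an output of ERK, was counted with the members and had a change of -0.004. Spry4 and Spred1, which encode inhibitors of the ERK cascade, both rose, Spry4 by 1.45 (SE 0.18, adjusted p = 0.000547) while Spred1 gained 0.75 (SE 0.17, adjusted p = 0.0120). Spred2, the third inhibitor tested, was at 0.30 (SE 0.23, adjusted p = 0.403). Gadd45a, Gadd45b and Gadd45g encode stress proteins that bind and activate the MAP3K MEKK4. Gadd45g rose by 1.87 (SE 0.37, adjusted p = 0.00751). The rise was 1.36 for Gadd45b (SE 0.22, adjusted p = 0.00254) and, for Gadd45a, 1.35 (SE 0.36, adjusted p = 0.0265). Gadd45b was above background on 3 of 4 saline arrays, and its change was 1.74 with the smaller background offset of 16. Of the downstream kinases, Rps6ka3, which encodes RSK2, rose by 0.99 (SE 0.24, adjusted p = 0.0168). Rps6ka2, which encodes RSK3, was at -0.59 (SE 0.16, adjusted p = 0.0274). Mapkapk3, which encodes a kinase activated by p38, was at -0.44 (SE 0.12, adjusted p = 0.0290). A second Rps6ka3 probe gave 0.72 and a second Spred1 probe 0.29.

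Several of these calls ended when 1 array was left out, although the changes kept their sign. Map3k12 was then at -0.93 to -0.59 and was called only without LPS 3 (adjusted p otherwise 0.0612 to 0.0876). Mapkapk3, at -0.50 to -0.40, lost its call without any of LPS 2, LPS 4 and saline 1, 2 and 4 (0.0643 to 0.0826). Rps6ka2, at -0.71 to -0.50, did so without any of LPS 2, LPS 4 and saline 2, 3 and 4 (0.0611 to 0.0820). Gadd45a, at 1.14 to 1.77, kept its call only without LPS 3 or saline 3 (otherwise 0.0518 to 0.0758). Etv5, at 0.46 to 0.65, lost it without LPS 4, saline 1 or saline 2 (0.0673 to 0.0821). Mapk12 passed without LPS 3 (-0.76, adjusted p = 0.0127).

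The calls of the pathway list also differed when batches were taken into account. Over all tested genes 1388 were called with scan day as a block and 445 within the first scan day, against 1732 in the report. Whether a batch or the smaller number of arrays compared ended a call was not tested. With slide series as a block, which leaves LPS 1 against the saline arrays of its series, 9 genes were called higher and 0 lower. Map3k11 was then at -0.91 (adjusted p = 0.0894), Map3k12 at -1.002 (0.0992), Mapkapk3 at -0.39 (0.280) and Rps6ka2 at -0.22 (0.576). Of the genes that rose, Gadd45a (1.97, adjusted p = 0.0564) and Etv5 (0.48, 0.305) also lost their call, beside Map2k1. With scan day as a block Map3k12, Mapkapk3, Gadd45a and Etv5 were no longer called (adjusted p 0.0650 to 0.0781). Within the first scan day, 3 LPS against 2 saline arrays, Rps6ka2, Gadd45b, Spry4 and Egr1 kept their calls.

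**Figure D4:**
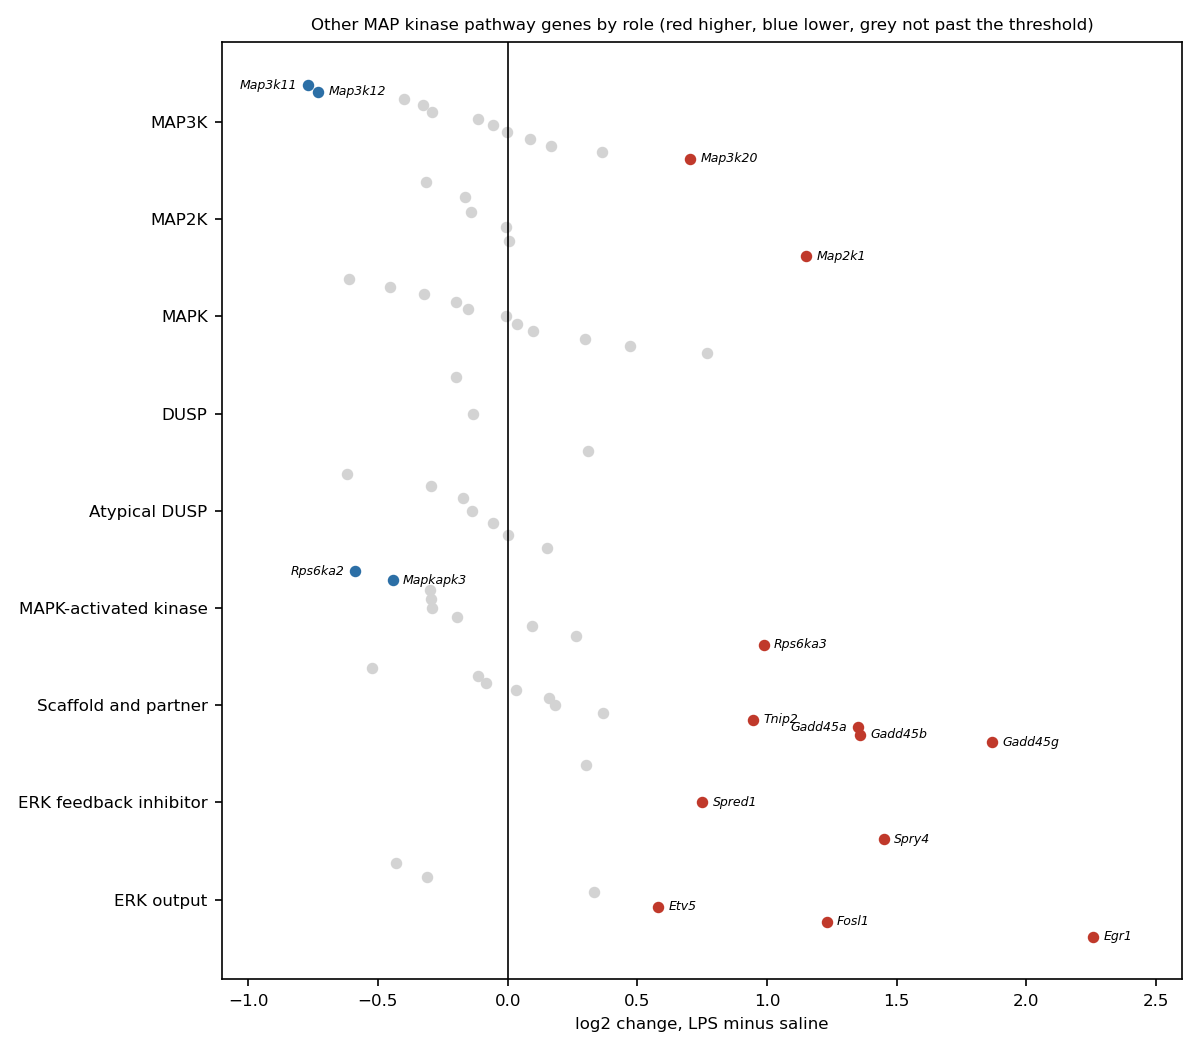
Log2 change, LPS minus saline (horizontal axis), of the 68 other tested pathway genes, 1 point per gene in rows by role; red and blue mark genes called higher and lower. The MAPK and both DUSP rows hold grey points alone, and Egr1 at 2.26 is the largest change.

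Markers of several cell types are given beside the shares over all tested genes, 19.5% called and 23.5% without overlap. Of the tested markers, 12.5% were called for cardiomyocytes, 16.7% for endothelial cells and 40% for fibroblasts. The share was 50% for monocytes and macrophages and 100% for neutrophils. Each rests on few genes, and no difference from all tested genes was tested. Of 10 neutrophil markers 4 passed the filter (S100a8, S100a9, Csf3r and Retnlg) and all 4 rose. Ly6g, Mpo, Elane, Cxcr2, Camp and Ngp did not pass it. Csf3r was above background on no saline array and passed the filter through the LPS group alone. S100a9 was above background on 2 saline arrays, and S100a8 and Retnlg on 3. None of the 4 would have reached the 4 arrays of the filter without LPS arrays, so the share of 100% depends on the filter. The mean log2 level of these 4 neutrophil markers was 8.18 to 8.49 with LPS and 6.17 to 7.40 with saline. Of 9 monocyte and macrophage markers 4 passed the filter, and 2 of them, C1qa and Lyz2, fell. Their mean level was 8.49 to 9.26 with LPS and 9.20 to 9.39 with saline. Cardiomyocyte markers had a mean of 13.55 to 13.77 with LPS and 13.86 to 14.54 with saline. All 8 had negative changes (-0.85 to -0.18), of which 1 was called lower. All 6 endothelial markers had negative changes too, of which Egfl7 alone was called (-2.13, adjusted p = 0.00156). Their mean level was 9.17 to 9.81 with LPS and 9.96 to 10.21 with saline. These means did not overlap, and neither did the cardiomyocyte and neutrophil means. The share of 23.5% is one of single genes. Gene by gene, the groups did not overlap for 2 of 6 endothelial and 3 of 8 cardiomyocyte markers. All tested smooth muscle, erythroid, platelet, monocyte and macrophage markers had negative changes as well. Of 5 fibroblast markers tested Dcn rose and Col1a1 fell, and the mean ran from 9.52 to 10.23 with LPS and from 9.85 to 10.77 with saline. The 2 adipocyte markers tested were not called and were uneven among arrays, at a mean of 6.40 to 10.01 with LPS and 6.32 to 8.25 with saline. So were the 2 atrial markers, at 6.59 to 14.87 with LPS and 6.76 to 14.86 with saline. No smooth muscle, lymphocyte, erythroid or platelet marker tested was called. The part of these cells in the rise of Map3k6, Map3k8 or any other gene was not tested.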

How the data were processed

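RNA of 8 hearts was measured on spotted 1-colour arrays. The deposited files give, per spot, the raw intensity at 635 nm and that of its surroundings, exported by GenePix Pro 4.1.1.4 at gain 650 and 5 µm pixels, per the file headers. The deposited value table names no genes and was not used here. Median spot intensities were corrected by normexp (offset 50) in limma 3.58.1 under R 4.3.3, taken to log2 and quantile normalized. Spots marked bad by the scanner software were left out. Of 35078 gene probes, 23017 matched 1 symbol through RefSeq; 14914 passed the filter, each gene being read from its brightest probe (3249 unnamed probes were tested beside them). LPS was compared with saline by lmFit and eBayes (prior 4.13 of 10.13 degrees of freedom), with Benjamini-Hochberg adjustment over all of these. The fit alone was tested on simulated data, with independent noise for each gene and no batches, after normalization and filter. That test therefore cannot speak to batches or to signals near the limit. The members and lists were chosen with earlier results of these data known. Named are all 10 members, every called gene of the pathway list or otherwise the smallest p of a role, and the 3 nearest profiles of the members called. Nfkb1, Map2k2, Map2k6, Spred2, Phlda1, Ccnd1, Epha4, Egfl7 and genes named without values were added after their values were seen. A gene not above background on any array of 1 group is given as a bound, with its level raised on each dim array to the lowest value of any probe above background there. The number of arrays limits the precision. Alternatives covered background, normalization, filter, probes, spot summary, model, batches and left-out arrays.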

Additional observations from a re-analysis of the deposited data

How the results depend on the processing

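Across 27 alternatives Map3k6 kept its call in all, and Map3k8 in 24 of the 26 that measured it; it was not tested where probes had to be above background on all 8 arrays. The number of members called, 2 in the report, was 1 under that filter, within the first scan day and on the unmarked arrays, 3 with the redip mark as a block, where Map3k5 passed, and 4 on the marked arrays, where Map3k5 and Mapk14 passed as lower. Mean spot brightness and array weights each gave 3 members, with Mapk14 passing as lower. Leaving out 1 array gave 2 to 4 members, the 4 without saline 3. The pathway list, with 16 called, gave 26 with mean spot brightness, 4 within the first scan day, 9 with slide series as a block (all higher), 1 on the unmarked arrays, and 11 to 22 with 1 array left out. All tested genes, with 1732 called, gave 445 within the first scan day, 758 with slide series as a block, 821 within the second slide series, 72 on the unmarked arrays, and 1104 (without LPS 2) to 2011 (without LPS 3) with 1 array left out; without saline 2 it was 1143. Subsets hold fewer samples, and the meaning of the redip mark is not known here. Over all tested genes, mean spot brightness gave 2337 called and array weights 2206. Median scaling over all gene probes gave 347 genes higher and 1126 lower.

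Changes that turned sign had no call in the setting that turned them. Dusp6 was at 0.0617 with cyclic loess, 0.0163 with median scaling over the tested probes, 0.0215 with slide series as a block or within the second series, 0.14 on the unmarked arrays, and -0.0511 to 0.0720 with 1 array left out. Dusp8 was at -0.32 with median scaling over all gene probes, -0.0449 with mean spot brightness, -0.0760 with array weights, -0.0557 with scan day as a block, -0.20 within the first day, -0.23 on the marked arrays, and -0.0700 to 0.22 with 1 array left out. Median scaling over all gene probes gave -0.18 for Dusp1 and for Dusp16, and the mean over probes gave -0.0143 for Dusp16. Map3k5 was at 0.10 with slide series as a block or within the second series. The cause was not tested.

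With replicate number as a block (replicate block) 2 members, 16 pathway genes and 1528 of all genes were called. Same-numbered arrays had correlations of their deviations of 0.0878, -0.136, 0.0899 and -0.0825. The saline array of the same number was the best match for LPS 1 and LPS 3, but not for LPS 2 and LPS 4. Same-numbered arrays were alike in having or lacking the redip mark, and those numbered 3 and 4 shared the first scan day. The replicate block therefore cannot be told apart from these batches. Under the block Rps6ka2 (adjusted p = 0.0610) and Mapkapk3 (0.0730) lost their calls and Mapk12 passed (0.0372). Within the second scan day, added after the data were seen, LPS 1 exceeded saline 2 by 2.48 for Map3k6 and 0.94 for Map3k8. Signals near the negative-control limit restrict what can be said of Map3k8 and Dusp10, and of Map2k6, Map3k12, Fosl1 and Gadd45b in the pathway list.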
